A study of Mus musculus with 8 samples.

Results

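The genes described here are the 3 Foxo transcription factors Foxo1, Foxo3 and Foxo4, and 7 genes of the myostatin pathway: the ligand Mstn, its inhibitors Fst and Fstl3, the receptors Acvr2a and Acvr2b, and the signal carriers Smad2 and Smad3. They were chosen by symbol, as the row with the highest mean for each, and all 10 were found among 38741 symbols. Messenger RNA was measured in the gastrocnemius, a calf muscle, of 4 wild-type (WT) males aged 9 to 10 weeks and weighing 22 to 25 g, and of 4 males homozygous for the Bcat2tm1.2Clyn allele (KO), aged 10 to 11 weeks and weighing 15 to 24 g, all on a C57BL6 background. Bcat2 encodes BCATm, the mitochondrial enzyme that starts the breakdown of branched-chain amino acids. Mice of both genotypes, and their dams, could eat chow or a purified diet without branched-chain amino acids. The labels name no Cre or tissue restriction for the allele, and each library is 1 mouse.

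Myostatin is secreted by muscle and limits its growth. It binds the type II receptors ACVR2A and ACVR2B, which recruit a type I receptor that activates SMAD2 and SMAD3. These join SMAD4 and enter the nucleus, while follistatin (Fst) and FSTL3 bind the ligand outside the cell. Foxo factors are held in the cytoplasm when insulin and IGF1 signalling through AKT is active, and otherwise switch on genes of protein breakdown such as Fbxo32 and Trim63. Much of this control acts on proteins, which these data do not measure.

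Values are FPKM, fragments scaled to exon length and to the mapped total of the library, so levels can be compared between genes. FPKM summed to between 691168 and 896190 per library, and relative depth ran from 0.435 of that of WT2 in WT4 to 1.22 in WT3. The target transcript matched the labels, with Bcat2 at 41.2 to 83.0 FPKM in WT mice and 2.09 to 5.26 FPKM in KO mice. Skeletal muscle fibre markers were abundant, with 7 of 8 listed markers analysed and a summed level of 47492 to 59342 FPKM in WT and 47678 to 59378 FPKM in KO mice. Only Myh1 among them was listed at 0 in a mouse, KO7. Of the 7, 5 had a lower KO mean and 2 a higher one (lowest limma adjusted p = 0.48). KO means ran from 39.6% of the WT mean for Myh1 to 129% for Mb. Libraries WT1 and KO6 stood apart, with summed adipocyte markers of 18398 and 9583 FPKM against 1614 to 3072 FPKM in the other 6 mice, and KO6 held skin keratinocyte markers at 1402 FPKM against 2.96 to 9.86 FPKM elsewhere. For several results on which these 2 mice bear, the value without them or the range over alternative settings is given.

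Smad3 was the member in which the genotypes separated. Smad3 (ENSMUSG00000032402, mm10 chromosome 9, 63646767 to 63757994), which carries the myostatin and activin signal to the nucleus, read 13.3, 13.7, 22.9 and 16.5 FPKM in WT1 to WT4 and 7.81, 6.02, 10.4 and 8.51 FPKM in KO5 to KO8. The highest KO mouse lay below the lowest WT mouse, and the KO mean of 8.18 ± 1.81 was 49.3% of the WT mean of 16.6 ± 4.42 FPKM (SD, n = 4 each). On the log2(FPKM + 1) scale, which understates differences of genes with low FPKM, KO minus WT was -0.93 (SE 0.21, 95% interval -1.41 to -0.44). The exact permutation test over mice gave p = 0.0286 (2-sided), the smallest that 4 against 4 mice allow. Over all 11118 tested genes, those with a mean of at least 1 FPKM, Smad3 did not pass the threshold of 0.05 (limma adjusted p = 0.48). Among those genes it ranked 24th by unadjusted limma p, and 2.22% of tested genes had a log2 difference at or below its own.

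Across the 10 members, 9 were tested and Fstl3 was under the minimum mean. None passed (limma, 0 of 9), against 0.027% of all tested genes, of which 0.018% lower and 0.00899% higher in KO. An unadjusted limma p under 0.05 was reached by 1 of 9, Smad3, against 10.3% of all tested genes, and the groups did not overlap in 1 of 9, again Smad3, against 6.75%, of which 4.68% lower and 2.07% higher in KO. Both shares are near their background, so the members as a set do not stand out. The log2 difference was below 0 in 6 of 9 members and in 63.6% of all tested genes, and the members' median was -0.01 against -0.12 for all genes. That places it 0.11 above all genes, and -0.01 relative to them without WT1 and KO6. In the authors' deposited table, Smad3 carries the flag for both p thresholds and the other 9 members carry neither. The same table flags 6.37% of its rows at 0.05 and 3.11% at 0.001, and no source used here names the test behind them.

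**Figure D1:**
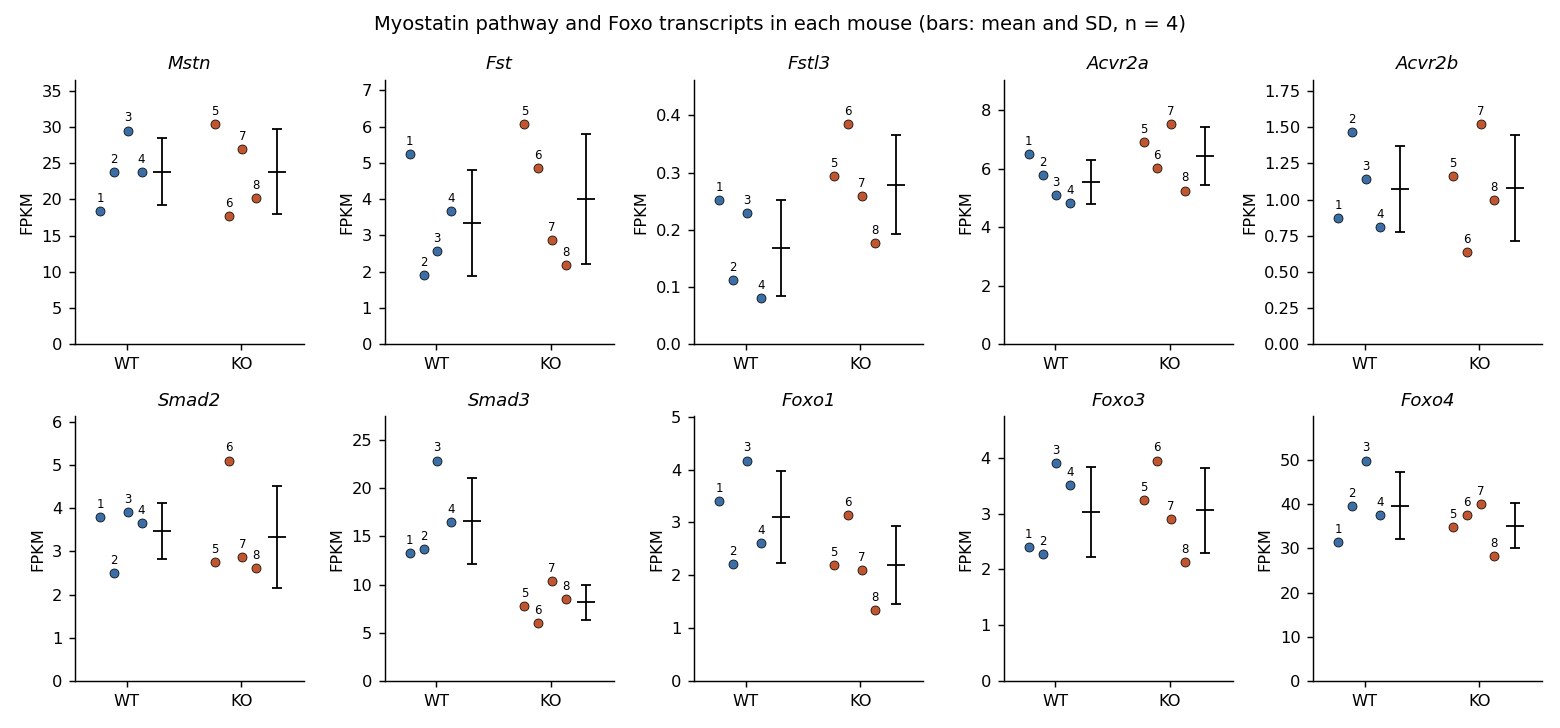
FPKM of the 10 genes (vertical axes, each from 0) in WT mice (blue, labelled 1 to 4) and KO mice (orange, labelled 5 to 8), with bars for mean and SD (n = 4). In the Smad3 panel the KO points, 6.02 to 10.4 FPKM, lie under the WT points, 13.3 to 22.9 FPKM, while in the other 9 panels the groups overlap.

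Smad2, the partner that carries the same signal (ENSMUSG00000024563, chromosome 18, 76241580 to 76305731), read 3.79, 2.504, 3.92 and 3.65 FPKM in WT and 2.75, 5.10, 2.88 and 2.62 FPKM in KO mice. The KO6 value was the highest of all 8 and the other KO mice lay within the WT range. Means were 3.46 ± 0.65 and 3.34 ± 1.18 FPKM (SD, n = 4 each; limma adjusted p = 0.9). The log2 difference was -0.06, and -0.20 without WT1 and KO6. Smad4, the shared partner of both, averaged 10.4 ± 1.38 and 10.3 ± 1.64 FPKM (SD, n = 4 each; limma adjusted p = 0.961).

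Ratios of 2 transcripts within a mouse do not depend on how libraries are scaled, and 6 were computed after the values were seen. Smad3 to Smad4 was 1.42, 1.34, 1.84 and 1.70 in WT and 0.65, 0.553, 1.02 and 1.05 in KO mice. The groups did not overlap, with means of 1.58 ± 0.234 and 0.819 ± 0.254 (SD, n = 4 each; exact permutation p = 0.0286, 0.114 adjusted over the 6 ratios by Benjamini-Hochberg). Smad3 to Smad2 ran from 3.52 to 5.84 in WT and from 1.18 to 3.61 in KO mice, so KO7 lay just above WT1 (exact permutation p = 0.0571, adjusted 0.114). Neither ratio passed after adjustment, and both contain Smad3, so they are no separate test of its difference. For Foxo1 to Foxo3 the range was 0.744 to 1.42 in WT and 0.632 to 0.793 in KO mice (exact permutation p = 0.0571, adjusted 0.114), with KO6 above WT4. The other 3 ratios, Mstn to Fst, Acvr2a to Acvr2b and Foxo4 to Foxo3, overlapped broadly (exact permutation p from 0.457 to 0.686).

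**Figure D2:**
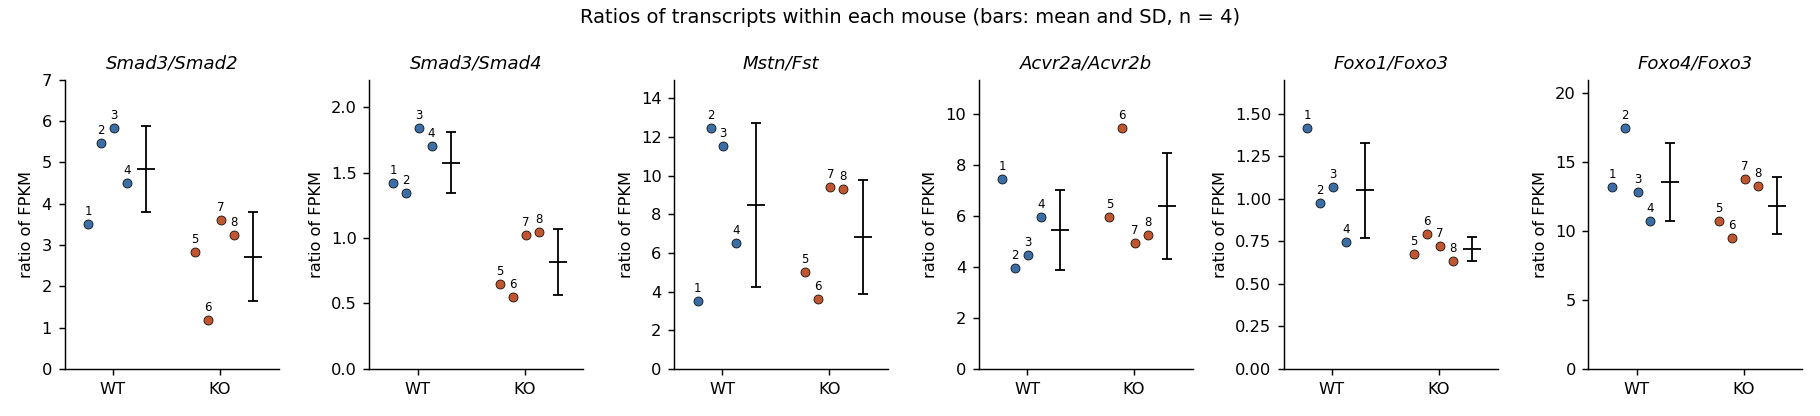
Ratios of FPKM within each mouse (vertical axes, each from 0) for 6 pairs of transcripts in WT (blue, 1 to 4) and KO mice (orange, 5 to 8), with bars for mean and SD (n = 4). The Smad3/Smad4 panel is the one in which the genotypes do not overlap, at 1.34 to 1.84 in WT and 0.553 to 1.05 in KO mice.

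The Smad3 difference kept its sign in all 18 alternative settings, from -1.04 without KO7 to -0.77 without WT3, and passed in none of them (limma adjusted p from 0.377 to 0.854). Without WT1 and KO6 it was -0.89 (limma adjusted p = 0.445). With median-ratio scaling, which moves the median of all genes from -0.12 to about 0, it was -0.79. Markers of other cell types are given beside it, though none of them passed and their summed levels overlapped between genotypes. Of 8 fibroblast and matrix markers, 7 had a lower KO mean, and the summed level of all 8 was 433 to 725 FPKM in WT and 378 to 580 FPKM in KO mice. Dcn, the 1 marker with a higher KO mean, was the largest part of each sum. It read 258 to 410 FPKM in WT and 255 to 417 FPKM in KO mice, so the sums say little about the other 7. Of 8 endothelial markers, 7 had a lower KO mean, with sums of 58.3 to 108 and 39.96 to 77.6 FPKM. All 8 Schwann cell and nerve markers had a higher KO mean, with sums of 51.6 to 95.7 and 77.1 to 187 FPKM. No marker of these 3 lists was at 0 in any mouse, and their part in the Smad3 result was not tested. In bulk muscle, fewer cells of a type and less RNA per cell cannot be told apart.

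**Figure D3:**
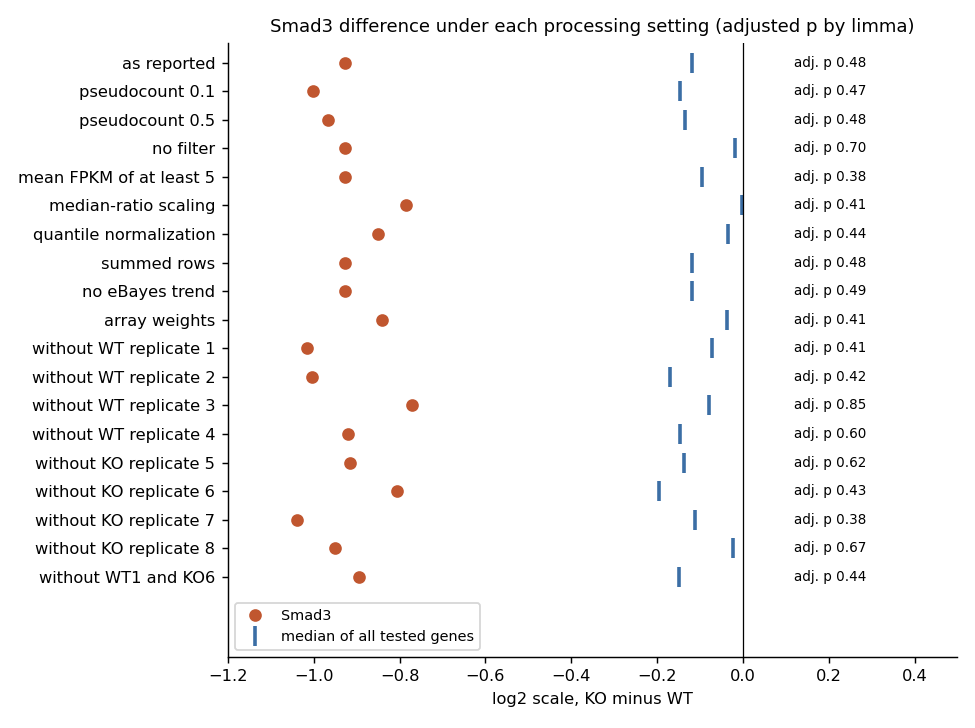
Log2 difference of Smad3, KO minus WT (orange points), and the median of all tested genes (blue ticks) under the reported setting and 18 alternatives, with the limma adjusted p at the right. Smad3 lies between -1.04 and -0.77 throughout, and no adjusted p is under 0.377.

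Myostatin itself did not separate the genotypes. Mstn (ENSMUSG00000026100, chromosome 1, 53061663 to 53068079) read 18.3, 23.8, 29.5 and 23.8 FPKM in WT and 30.4, 17.7, 26.9 and 20.2 FPKM in KO mice. The lowest and the highest value of all 8 were both in KO mice, and the means were 23.8 ± 4.56 and 23.8 ± 5.86 FPKM (SD, n = 4 each). The log2 difference was -0.01 (95% interval -0.49 to 0.46; limma adjusted p = 0.981). Gdf11, the ligand most like myostatin, averaged 3.37 and 3.54 FPKM (limma adjusted p = 0.927). Inhba, which encodes the activin A subunit, was near 0 in all mice, at most 0.229 FPKM, and listed at 0 in WT1 and KO8.

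Follistatin varied more between mice than between genotypes. Fst (ENSMUSG00000021765, chromosome 13, 114452262 to 114458730) read 5.25, 1.91, 2.56 and 3.66 FPKM in WT and 6.08, 4.87, 2.87 and 2.18 FPKM in KO mice. KO5, WT1 and KO6 were the highest mice and WT2 the lowest, and the log2 difference was 0.19 (95% interval -0.53 to 0.91; limma adjusted p = 0.791). It ran from -0.0021 to 0.38 over the alternative settings, among them leaving out WT1 and KO6. Fstl3 (ENSMUSG00000020325, chromosome 10, 79777272 to 79782630), a follistatin-like inhibitor, read 0.251, 0.112, 0.229 and 0.0803 FPKM in WT and 0.294, 0.385, 0.259 and 0.177 FPKM in KO mice. The 3 highest values were in KO mice, but KO8 lay within the WT range (exact permutation p = 0.143). Exons of other annotated genes lie over those of Fst (Gm47040) and Fstl3 (Prss57), and no strand setting is given, so both values are uncertain.

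Among genes that process, store or block such ligands, 23 were listed and 14 tested. None passed (limma), 2 had an unadjusted p under 0.05, both lower, against 7.33% of all tested genes lower, and the list median was -0.30 against -0.12 for all genes. With no filter on low values the list no longer stood below all genes, with a median of 0.0049 relative to them against -0.18. Ltbp4, a protein that anchors latent TGF-beta in the matrix, read 19.3, 14.2, 27.2 and 17.6 FPKM in WT and 13.2, 11.5, 13.1 and 7.82 FPKM in KO mice. It was the 1 gene of the 14 without overlap (limma adjusted p = 0.48), against 4.68% of all tested genes without overlap and lower in KO. Fstl1, a secreted follistatin-like protein, averaged 19.8 ± 5.40 and 13.3 ± 0.704 FPKM, and Ltbp3, another anchor of latent TGF-beta, 8.34 ± 2.47 and 5.63 ± 1.22 FPKM (SD, n = 4 each; limma adjusted p = 0.48 and 0.484). Furin, a protease that cleaves the myostatin precursor, averaged 8.62 and 6.92 FPKM, and Wfikkn2, a binding protein of myostatin, 2.504 and 1.93 FPKM (limma adjusted p = 0.613 and 0.554).

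Of the 2 type II receptors, Acvr2a was the more abundant in all 8 mice, and in both the genotypes overlapped. Acvr2a (ENSMUSG00000052155, chromosome 2, 48814109 to 48903269) read 6.49, 5.79, 5.09 and 4.83 FPKM in WT and 6.90, 6.02, 7.53 and 5.25 FPKM in KO mice. KO5 and KO7 were above all WT mice while KO6 and KO8 were within their range, and the log2 difference was 0.18 (95% interval -0.15 to 0.51; limma adjusted p = 0.613). Without KO7 it was 0.11, and with median-ratio scaling 0.31. Exons of Orc4 lie over those of Acvr2a, so its value is uncertain. Acvr2b (ENSMUSG00000061393, chromosome 9, 119402444 to 119433501) read 0.872, 1.47, 1.14 and 0.81 FPKM in WT and 1.16, 0.636, 1.52 and 1.00 FPKM in KO mice. KO mice held both the lowest and the highest value, and the 95% interval of the log2 difference ran from -0.51 to 0.50 (limma adjusted p = 0.999). The type I receptors that act with them, Acvr1b and Tgfbr1, averaged 9.28 ± 2.34 and 6.59 ± 1.32 FPKM, and 5.30 ± 0.524 and 6.75 ± 1.65 FPKM (SD, n = 4 each; limma adjusted p = 0.484 and 0.522).

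Of 24 genes of receptors and SMAD2/3 signalling, members included, 20 were tested and none passed (limma). Smad3 and Nedd4l, 2 of 20, had an unadjusted p under 0.05 and no overlap, both lower, against 7.33% of all tested genes for such a p and 4.68% without overlap. The list median was -0.19 against -0.12 for all genes. Nedd4l, a ubiquitin ligase that acts on activated SMAD2 and SMAD3, read 2.63, 2.81, 3.33 and 2.10 FPKM in WT and 1.69, 1.59, 1.83 and 1.19 FPKM in KO mice (limma adjusted p = 0.48). Smad7, the inhibitory SMAD that the pathway itself induces, averaged 1.86 ± 0.569 and 1.27 ± 0.709 FPKM (SD, n = 4 each; limma adjusted p = 0.578).

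Among 18 listed SMAD2/3 target genes, 16 were tested and none passed (limma). Col1a1 and Col1a2, the chains of type I collagen, had an unadjusted p under 0.05, both lower (2 of 16, against 7.33% of all tested genes), and the list median was -0.13 against -0.12 for all genes. Relative to all genes that is -0.02, and -0.18 without WT1 and KO6. Col1a1 read 44.8, 30.02, 80.3 and 84.4 FPKM in WT and 32.5, 7.47, 32.4 and 14.3 FPKM in KO mice, with WT2 below KO5 and KO7 (limma adjusted p = 0.48). Fn1, which encodes fibronectin, averaged 10.1 and 6.34 FPKM (limma adjusted p = 0.484). Of the 16 tested, 11 had a log2 difference below 0 and 5 above, against 63.6% of all tested genes below 0. Ctgf, given because of its values, went the other way, at 11.7 and 21.6 FPKM (limma adjusted p = 0.486). Both collagens and Fn1 also stand on the fibroblast and matrix list, whose sums are given above. Cdkn1a, the cell-cycle inhibitor p21, read 6.18 to 13.3 FPKM in WT and 69.3, 42.3, 10.6 and 4.29 FPKM in KO mice, so KO5 and KO6 were high and KO7 and KO8 were not (limma adjusted p = 0.561).

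The BMP branch, which signals through other SMADs, gave none past the threshold among 15 tested of 22 genes (limma), with 1 unadjusted p under 0.05, lower, against 7.33% of all tested genes, and a median of -0.09 against -0.12 for all genes. That gene was Acvr1, a type I receptor, at 4.99 ± 0.825 and 3.27 ± 1.02 FPKM (SD, n = 4 each; limma adjusted p = 0.48). Id1, a target of BMP signalling, averaged 13.6 and 21.7 FPKM with WT1 inside the KO range, and Bmp6 2.87 and 1.89 FPKM (limma adjusted p = 0.484 and 0.5).

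**Figure D4:**
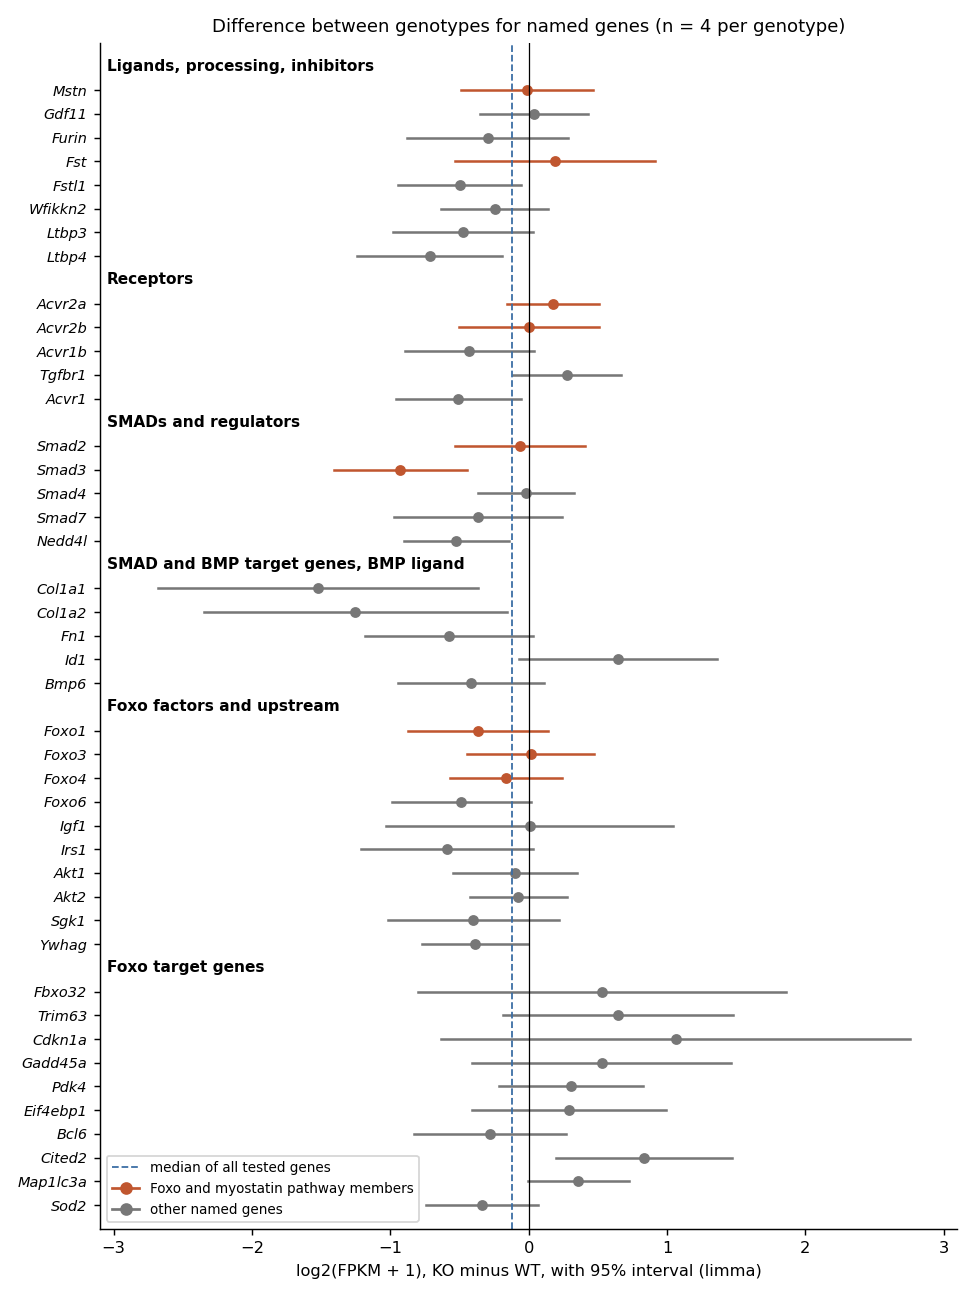
Log2 difference, KO minus WT, with its 95% interval (horizontal axis; limma, n = 4 per genotype) for the tested members (orange) and other named genes (grey), by role. The interval of Smad3, -1.41 to -0.44, lies below 0 and below the median of all tested genes at -0.12 (dashed line), and the intervals of the other 8 members include 0.

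Foxo4 was the most abundant Foxo transcript, and none of the 3 separated the genotypes. Foxo4 (ENSMUSG00000042903, chromosome X, 101254528 to 101260873) read 31.6, 39.7, 49.9 and 37.6 FPKM in WT and 34.8, 37.5, 40.1 and 28.2 FPKM in KO mice. KO8 was the lowest mouse and WT3 the highest, and the log2 difference was -0.16 (95% interval -0.57 to 0.24; limma adjusted p = 0.668). It ran from -0.26 without WT1 to -0.05 without WT3, and was -0.30 without WT1 and KO6 and -0.02 with median-ratio scaling. Foxo1 (ENSMUSG00000044167, chromosome 3, 52268337 to 52350109) read 3.40, 2.22, 4.17 and 2.61 FPKM in WT and 2.199, 3.13, 2.10 and 1.34 FPKM in KO mice. Of the KO mice, 3 lay below every WT mouse and KO6 lay within the WT range, with a log2 difference of -0.37 (95% interval -0.87 to 0.14; limma adjusted p = 0.516). Without KO8 it was -0.23, without KO6 -0.50, and without both WT1 and KO6 -0.46. Exons of Gm20402 lie over those of Foxo1, so its value is uncertain. Foxo3 (ENSMUSG00000048756, chromosome 10, 42181841 to 42276755) read 2.40, 2.28, 3.90 and 3.51 FPKM in WT and 3.24, 3.95, 2.91 and 2.12 FPKM in KO mice. The lowest and the highest values were again in KO mice, and the log2 difference was 0.02 (95% interval -0.44 to 0.47; limma adjusted p = 0.978). The median of all tested genes in KO8 lay 0.351 below its mean over the mice on the log2 scale, and KO8 was the lowest mouse for all 3 Foxo genes.

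Of 36 genes listed as upstream of the Foxo factors, with Foxo6 counted among them, 33 were tested and none passed (limma). An unadjusted p under 0.05 was found in 1 of 33, against 10.3% of all tested genes, and no overlap in 1 of 33, against 6.75%. The list had a median of -0.18 against -0.12 for all genes. The gene with the unadjusted p under 0.05 was Ywhag, a 14-3-3 protein of the family that holds Foxo factors in the cytoplasm, at 73.8 ± 13.8 and 55.7 ± 6.55 FPKM (SD, n = 4 each; limma adjusted p = 0.483). Phlpp1, a phosphatase that acts on AKT, was the 1 of the 33 tested genes without overlap, at 1.25 to 1.95 FPKM in WT and 0.706 to 1.201 FPKM in KO mice, and is named because of those values (limma adjusted p = 0.504). Igf1r and Phlpp2, named for the same reason, did not overlap either but lay under the minimum mean, at 0.586 to 0.909 against 0.229 to 0.569 FPKM, and 0.414 to 0.642 against 0.145 to 0.367 FPKM. Akt2 and Akt1, kinases that phosphorylate Foxo factors, overlapped between genotypes. Akt2 averaged 72.2 and 68.8 FPKM and Akt1 17.0 and 15.9 FPKM (limma adjusted p = 0.83 for both). Igf1 read 11.2 FPKM in WT1 and 12.2 FPKM in KO6, the 2 mice with raised adipocyte markers, and 2.90 to 4.68 FPKM in the other 6. Irs1, which links the insulin receptor to the pathway, averaged 2.90 ± 0.547 and 1.72 ± 1.10 FPKM, and Foxo6, a further family member, 1.76 ± 0.325 and 1.00 ± 0.453 FPKM (SD, n = 4 each; limma adjusted p = 0.484 for both). Sgk1, a kinase that also phosphorylates Foxo factors, averaged 41.6 and 30.5 FPKM (limma adjusted p = 0.548).

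Foxo target genes were high in 2 of the 4 KO mice. Of 40 listed, 36 were tested and none passed (limma), with 1 unadjusted p under 0.05, higher, against 2.99% of all tested genes higher. The list median was 0.10 against -0.12 for all genes, and 26 of 36 genes lay above the all-gene median. By mouse, the list's median deviation relative to all genes reached 0.29 for KO5 and 0.31 for KO6. It was -0.08 for KO7, -0.02 for KO8 and -0.10 to -0.05 for WT mice. KO6 held the highest value of 15 of the 36 genes, KO5 of 10 and WT3 of 7. Of all tested genes, 24.0% were highest in KO6, 11.3% in KO5 and 33.5% in WT3. Without WT1 and KO6 the list median stood 0.15 above all genes, against 0.22 with all mice. Adipocyte and keratinocyte markers were also high in KO6. KO5 had the highest sums of slow fibre (1722 FPKM), Schwann cell and nerve (187 FPKM) and satellite cell and myoblast markers (978 FPKM) of all 8 mice, an adipocyte sum of 3072 FPKM and a keratinocyte sum of 4.19 FPKM. The satellite cell and myoblast sum of KO5 was nearly all Des, at 964 FPKM. Of the other markers on that list, Myf5 and Myog were highest in KO5. Pax7, Myod1 and Chrdl2 were not, with Pax7 at 0.25 FPKM in KO5. Of the slow fibre markers, Myh7, Tnnt1 and Atp2a2 were highest in WT4 and the others in KO5, where Myl3 alone read 719 FPKM. WT4 had the next highest slow fibre sum, 1305 FPKM, with a Foxo target deviation of -0.07. Of the Schwann cell and nerve markers, Sox10 was highest in KO7 and the others in KO5. The part of these cell types was not tested.

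The ubiquitin ligases that mark muscle wasting, Fbxo32 and Trim63, were also highest in KO5 and KO6. Fbxo32 read 25.8, 41.7, 66.3 and 58.8 FPKM in WT and 179, 88.0, 51.6 and 22.7 FPKM in KO mice, with KO8 the lowest of all 8 (limma adjusted p = 0.676). Trim63 read 111 to 146 FPKM in WT and 426, 225, 160 and 112 FPKM in KO mice, so KO7 too lay above every WT mouse (limma adjusted p = 0.505). Gadd45a, a stress-response gene, read 9.38 to 18.9 FPKM in WT and 35.5, 24.3, 13.2 and 8.58 FPKM in KO mice (limma adjusted p = 0.604). Without WT1 and KO6 the log2 differences were 0.13 for Fbxo32, 0.52 for Trim63 and 0.88 for Cdkn1a, against 0.53, 0.64 and 1.06 with all mice. Without KO5 they were 0.05, 0.29 and 0.48. Cited2, a transcriptional co-regulator, had the unadjusted p under 0.05, at 13.6 ± 3.42 and 25.7 ± 8.49 FPKM (SD, n = 4 each; limma adjusted p = 0.48). Its KO values of 25.3, 29.0, 14.2 and 34.2 FPKM set KO8 highest and only KO7 within the WT range. Map1lc3a, an autophagosome protein, averaged 238 and 304 FPKM, and Sod2, the mitochondrial superoxide dismutase, 71.0 and 56.3 FPKM (limma adjusted p = 0.484 and 0.488). Pdk4, the kinase that restrains pyruvate oxidation, averaged 100.7 and 123 FPKM, Eif4ebp1, a translation repressor, 48.8 and 61.5 FPKM, and Bcl6, a transcriptional repressor, 17.2 and 13.4 FPKM (limma adjusted p from 0.589 to 0.663).

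**Figure D5:**
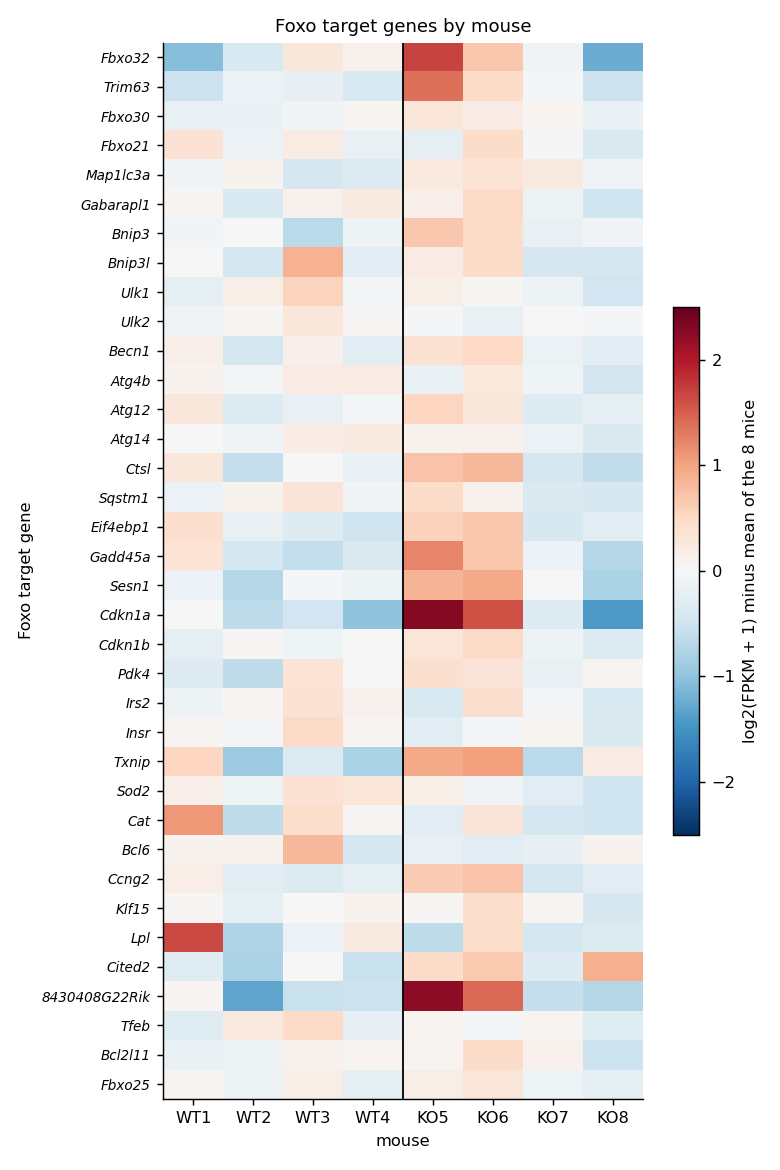
Log2(FPKM + 1) of 36 Foxo target genes (rows) in each mouse (columns; WT left and KO right of the line) minus the mean of the 8 mice, red above and blue below. KO5 and KO6 are red in most rows, with list medians of 0.29 and 0.31 relative to all genes. KO7 and KO8 stand at -0.08 and -0.02 relative to all genes, against -0.10 to -0.05 for WT mice. The colours are not set relative to all genes, and the median of all tested genes in KO8 was -0.351, so its column is drawn bluer.

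Ordered by mean over the 8 mice, the levels were Foxo4 37.4, Mstn 23.8, Smad3 12.4, Acvr2a 5.99, Fst 3.67, Smad2 3.40, Foxo3 3.04, Foxo1 2.65, Acvr2b 1.08 and Fstl3 0.224 FPKM. Foxo4 was above Mstn, Mstn above Smad3, Acvr2a above Fst, Foxo1 above Acvr2b and Acvr2b above Fstl3 in 8 of 8 mice. Smad3 was above Acvr2a in 7 of 8 mice, the exception being KO6. Between Fst and Smad2, Smad2 and Foxo3, and Foxo3 and Foxo1 the order was not kept, with the first above the second in 3, 6 and 6 of the 8 mice.

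The sequences before the start of Smad3, the member that separated the genotypes, and of Mstn, the ligand that did not, are shown. This pair was picked because its windows differ in the motifs scanned. Both are the 250 bases before the RefSeq start (GRCm38.p6), in capitals where they match CAGAC, a short SMAD-binding element, or CANNTG, the E-box of muscle regulatory factors, on either strand. The Smad3 window is chr9:63757995-63758244 (minus strand) and the Mstn window chr1:53061390-53061639 (plus strand), neither with an annotated exon.
Smad3: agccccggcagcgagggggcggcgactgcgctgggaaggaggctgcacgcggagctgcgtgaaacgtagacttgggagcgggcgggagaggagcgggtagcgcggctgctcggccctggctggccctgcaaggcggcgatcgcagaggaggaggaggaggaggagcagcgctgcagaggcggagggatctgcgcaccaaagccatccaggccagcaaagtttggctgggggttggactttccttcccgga
Mstn: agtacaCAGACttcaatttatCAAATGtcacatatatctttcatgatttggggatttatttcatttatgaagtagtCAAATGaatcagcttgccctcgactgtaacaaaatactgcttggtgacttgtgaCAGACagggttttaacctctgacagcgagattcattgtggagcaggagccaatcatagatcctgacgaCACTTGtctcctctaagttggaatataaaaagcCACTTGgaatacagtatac
The Smad3 window held neither motif and had a GC content of 69.2%, while the Mstn window held 2 CAGAC and 4 CANNTG matches at a GC content of 38.4%. The Mstn matches began 244 and 120 bases before the start for CAGAC, and 229, 174, 52 and 19 bases before it for CANNTG. Of the 32817 promoters in the RefSeq table, 42.2% held CAGAC and 66.2% held CANNTG in windows of the same length. The forkhead motif GTAAACA was in 3.16% of them and in none of the 7 members with a promoter in that table (Foxo1, Foxo3, Mstn, Acvr2a, Acvr2b, Fstl3 and Smad3). CAGAC was in 4 and CANNTG in 3 of those 7, and the 2 motifs overlapped in 1 place, in Fstl3. The window of Foxo3, in which the genotypes overlapped, held neither motif either, and that of Foxo1 held no CAGAC. A link between these motifs and the genotype differences was not tested. A match describes letters and is no measured binding site.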

How the data were processed

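Gastrocnemius mRNA of 8 mice was measured, 4 per genotype. Per the labels' protocols, the authors aligned single-end reads to mm10 with TopHat 2.0.9 and computed FPKM with Cufflinks 2.0.2, while the submitters' processing notes name Cufflinks 2.2.1; no source used here names the annotation or the strand setting. The deposited table holds FPKM per mouse, the authors' means, and flags of 0 or 1 for their p-value thresholds, per the file headers. Columns WT1 to WT4 match the labelled mice, and KO5 to KO8 match the KO group only. Nothing states more than 1 library per mouse.

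The highest-mean row of each symbol was used. Genes with a mean of at least 1 FPKM were tested with limma 3.58.1 (R 4.3.3, eBayes with trend) on log2(FPKM + 1) with 2-sided p, adjusted by Benjamini and Hochberg over all tested genes. Positions are the deposited start plus 1. Exact permutation tests ran over the 70 labelled splits. FPKM carry no read totals, so relative depth came from genes under 0.3 FPKM and no counting interval is given. The limma step was first run on simulated data with known changes and independent noise for each gene. That simulation held no shift of a whole library, unlike these data, and its outcome is not reported here. Python 3.11.15, pandas 2.3.3 and scipy 1.17.1 were used.

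The members and lists were chosen with earlier results of these data known. Named genes were the members, Bcat2, the 3 smallest p of each list with none past the threshold, and genes on which textbook accounts turn. Alternatives were pseudocounts of 0.1 and 0.5, no filter or a mean of 5 FPKM, 2 scalings, summed rows, no eBayes trend, array weights, each mouse left out, and WT1 and KO6 left out together. Some listed genes were not analysed here.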

Additional observations from a re-analysis of the deposited data

Results flagged for a closer look

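Among the named genes, 92 groups of 4 mice were examined for a mouse far from the other 3 of its genotype, a gap that chance gives in about 1 of 20 groups, and 6 were found. Smad2 in KO6, at 5.10 FPKM, stood above the next KO mouse at 2.88 FPKM. WT1 stood above the other WT mice in Bcat2 (83.0 FPKM against at most 46.0), Id1 (22.2 against at most 11.3) and Igf1 (11.2 against at most 3.94). KO8 stood below the other KO mice in Furin (3.80 FPKM against at least 7.60) and Akt2 (54.1 against at least 72.6). WT1 and KO6 are the libraries with raised adipocyte markers, and KO8 is the library whose median over all genes was lowest.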

How the results depend on the processing

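No paired analysis was possible because the KO columns carry the numbers 5 to 8, which match no replicate number of the labels. No member and no gene of the pathway lists passed in any alternative, and Bcat2 passed in all 18 (log2 difference -3.99 to -3.42). Over all genes the count past the threshold was 3, and ran from 4 to 9 with a mouse left out (9 without WT1, 8 without WT2, 6 without KO6, 8 without KO7 and 5 without KO8) and was 11 without both WT1 and KO6; the cause was not tested. Log2 differences near 0 turned sign. With median-ratio scaling the values were Mstn 0.13, Acvr2b 0.084, Smad2 0.048, Smad4 0.12, Akt1 0.044 and Akt2 0.073, and with quantile normalization Mstn 0.041, Acvr2b 0.067, Smad2 0.051 and Smad4 0.071. With array weights they were Mstn 0.12, Acvr2b 0.10, Smad4 0.087, Akt1 0.036 and Akt2 0.0084. Without WT1 and KO6 they were Foxo3 -0.16, Acvr2b 0.064 and Igf1 -0.029, and at a pseudocount of 0.1 Igf1 was -0.00025. With a mouse left out the ranges were Foxo3 -0.087 to 0.13, Mstn -0.14 to 0.11, Acvr2b -0.099 to 0.11, Fst -0.0021 to 0.38, Smad2 -0.24 to 0.011, Gdf11 -0.044 to 0.13, Smad4 -0.092 to 0.079, Igf1 -0.38 to 0.35, Akt1 -0.21 to 0.037 and Akt2 -0.12 to 0.035. None of these was past the threshold, and the cause of each turn was not tested. The other named genes kept their sign in every alternative in which they were tested. With 4 mice per genotype and no read totals, precision rests on the spread between mice, and differences smaller than the printed intervals cannot be told from 0.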

Other observations

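Over the 8 mice, 36 pairs of tested members were correlated on the log2(FPKM + 1) scale, and none passed (smallest Benjamini-Hochberg adjusted exact permutation p = 0.506). An unadjusted exact permutation p under 0.05 was reached by 2 pairs for Pearson r and by 2 for Spearman rho, 3 pairs in all, each with Smad2. Foxo1 and Smad2 had Pearson r = 0.75 and Spearman rho = 0.762 (exact permutation p = 0.0288 and 0.0368), and r = 0.83 without WT3 and KO8, the mice farthest from the Foxo1 median. Acvr2b and Smad2 had r = -0.768 and rho = -0.619 (exact permutation p = 0.027 and 0.115), and r = -0.612 without KO6 and KO7. Foxo3 and Smad2 had r = 0.701 and rho = 0.81 (exact permutation p = 0.0555 and 0.0218), and r = 0.461 without KO8 and WT2. After the mean of each genotype was removed, r was 0.824, -0.774 and 0.711 for these 3 pairs in turn.

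Of 11116 other tested genes, those most like Foxo1 over the 8 mice were Wdr1, Lmf2 and Brpf3 (Pearson r = 0.994, 0.993 and 0.987). For Foxo3 they were Gm16234, B230354K17Rik and Efcab2 (r = 0.967, 0.961 and 0.955), and for Mstn Nsmaf, Urgcp and Gm26605 (r = 0.957, 0.921 and 0.906). An r of at least 0.9 was reached by 829 genes with Foxo1, 26 with Foxo3 and 6 with Mstn. All share the same libraries, and Gm16234 and Gm26605 are listed at 0 in 3 mice each.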
